A study of Mus musculus with 6 samples.

Results

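The antibody target LRG1 and 9 receptors and ligands of TGF-beta signalling were followed in RNA sequencing libraries of sorted tumour endothelial cells. The set holds the 10 gene symbols Lrg1, Eng, Acvrl1, Tgfbr1, Tgfbr2, Tgfbr3, Bmpr2, Tgfb1, Tgfb2 and Tgfb3, chosen by name for their place in the pathway, and all 10 were found among the 24421 symbols counted. The groups were 3 libraries from C57BL/6 mice bearing subcutaneous B16F0 tumours and given the antibody 15C4 (15C4 1, 2 and 3), and 3 from such mice given IgG (IgG 1, 2 and 3). B16F0 is a transplantable mouse melanoma line, and both groups carried it for 17 days and were dosed at 50 mg/kg every 3 days. The labels give neither the age of the mice nor whether each library stands for its own animal. The p-values therefore measure the spread between libraries, part of which may be technical.

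LRG1, leucine-rich alpha-2-glycoprotein, is a secreted protein that binds the co-receptor endoglin and is known to shift endothelial TGF-beta signalling towards the receptor ALK1 during vessel growth in disease. 15C4 is known as an antibody that blocks LRG1, and it acts on the protein, so the level of the transcript is no test of the treatment. TGF-beta ligands bind a type II receptor, which recruits and phosphorylates a type I receptor, which in turn phosphorylates SMAD transcription factors. In endothelial cells the type I receptors ALK1 (gene Acvrl1) and ALK5 (gene Tgfbr1) feed different SMADs, and the co-receptors endoglin (Eng) and betaglycan (Tgfbr3) present ligand.

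Total counts lay between 6392700 and 19572202 in the 15C4 libraries and between 5175600 and 11669085 in the IgG libraries. The summed level of 24 pan-endothelial markers was 1664 to 3588 CPM (a share of all counts of the library) in 15C4 and 232 to 2940 CPM in IgG. The lowest value was that of IgG 3, in which Cdh5, the endothelial cadherin gene, was at 46.3 CPM. The 13 melanocyte markers summed to 24626 to 28491 CPM in 15C4 and to 24213 to 29360 CPM in IgG, so every library also held tumour cell transcripts. Lymphatic endothelial markers (7 genes) reached 1168 CPM in IgG 2 and at most 63.8 CPM elsewhere. T and NK cell markers (14 genes) reached 606 CPM in IgG 1 and 220 CPM in 15C4 1. The chemokine gene Ccl5 alone made up 214 CPM of the sum in 15C4 1, where 7 of the 14 genes were at 0, and 124 CPM in IgG 1. Fibroblast markers (9 genes) reached 155 CPM in 15C4 3, where Lum alone was at 151 CPM, and 95.1 CPM in IgG 1. Elsewhere they summed to at most 7.47 CPM. Pericyte and smooth muscle markers (11 genes) summed to 62.9 to 84.3 CPM in 15C4 and 10.5 to 103 CPM in IgG. The part of these cells in the level of any ligand was not tested. Of the 11144 genes tested, 1537 were at 0 in 15C4 3 and 31 to 507 in each other library. In such bulk libraries, fewer cells of a type and less RNA per cell cannot be told apart.

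The sequences upstream of 3 of these genes are shown because they belong to the antibody target, to its co-receptor and to the ligand that was higher in all 15C4 libraries. They come from RefSeq (GRCm38.p6), run 5′ to 3′ on the strand of the gene and end at its start, or, for Lrg1, before the earliest start that GENCODE M21 gives. They lie at chr17:56122002-56122196 (minus strand) for Lrg1, chr2:32646345-32646594 (plus strand) for Eng and chr7:25686752-25687001 (plus strand) for Tgfb1. Capitals mark the SMAD-binding letters CAGAC on either strand, where it reads GTCTG on the other.
Lrg1: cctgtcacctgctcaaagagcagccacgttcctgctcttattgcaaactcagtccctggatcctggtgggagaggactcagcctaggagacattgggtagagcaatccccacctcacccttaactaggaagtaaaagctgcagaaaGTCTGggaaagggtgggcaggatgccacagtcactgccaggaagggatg
Eng: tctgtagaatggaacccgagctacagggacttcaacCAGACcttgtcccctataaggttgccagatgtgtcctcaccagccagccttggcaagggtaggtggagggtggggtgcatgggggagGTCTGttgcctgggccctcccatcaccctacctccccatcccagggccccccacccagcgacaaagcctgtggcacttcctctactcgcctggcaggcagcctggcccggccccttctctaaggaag
Tgfb1: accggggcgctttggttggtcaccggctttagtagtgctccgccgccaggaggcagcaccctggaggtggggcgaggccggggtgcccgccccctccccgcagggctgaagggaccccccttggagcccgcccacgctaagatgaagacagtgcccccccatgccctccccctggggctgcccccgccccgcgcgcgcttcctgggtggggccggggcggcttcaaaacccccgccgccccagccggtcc

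Over the 250 bases before the RefSeq start, Lrg1 held 1 CAGAC, Eng 2 and Tgfb1 0. These letters stood in 42.2% of the 32851 windows of that length in the table. The STAT motif TTCNNNGAA, on either strand, was in 7.02% of all windows and GGCGCC, the SMAD element of BMP targets, in 9.59%, and neither was in these 3. A match describes letters only, and no match says nothing of a factor. The table matched 7 of the 10 genes.

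Lrg1 (chromosome 17, 56119678 to 56122001, GRCm38) was detected in 3 of 6 libraries. It had 0, 65 and 0 counts in 15C4 1, 2 and 3, and 4, 190 and 0 counts in IgG 1, 2 and 3. In CPM of all counts this was 3.32 in 15C4 2, and 0.773 in IgG 1 and 19.7 in IgG 2. The groups overlapped, with a library at 0 in each. A floor of 3 counts stands at 0.357 CPM in 15C4 1, 0.469 CPM in 15C4 3 and 0.257 CPM in IgG 3, so expression below these levels could have been missed at this depth.

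Lrg1 was too low in too many libraries for the test across all genes. Summed over libraries, its counts per total were 0.258-fold in 15C4 relative to IgG (95% counting interval 0.192 to 0.344), an interval that covers counting error only. That direction rested on single libraries. Without IgG 2 the same ratio was 7.97 (2.97 to 30.1). Without 15C4 2 Lrg1 had 0 counts in 15C4, which is 36.1-fold lower at a floor of 3 counts over the group. The lower end of the 95% counting interval there was 29.1-fold. In an edgeR fit without a filter on low counts, its log2 fold change was -2.42 (SE 2.48, adjusted p = 0.888 over all genes).

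The 5 genes whose log2(CPM + 1) was most like that of Lrg1 over the 6 libraries were March2, Cdc37l1, Selp, Susd6 and Csf1, with Pearson r between 0.963 and 0.978, as a description over few libraries that differ in depth and in cell make-up. Selp, which encodes the adhesion molecule P-selectin of venules and platelets, had 0, 324 and 0 counts in 15C4 1, 2 and 3, and 26, 774 and 0 counts in IgG 1, 2 and 3. Selp and Lrg1 were thus at 0 in the same 3 libraries and highest in the same one. Of the 8 venous markers, 3, with Selp itself among them, were at 0 in each of 15C4 1, 15C4 3 and IgG 3. All 8 were detected in the other libraries. The venous list did not follow Lrg1 in its sum, which was 403, 650 and 474 CPM in 15C4 1, 2 and 3. In IgG 1, 2 and 3 the list summed to 506, 471 and 109 CPM. Its part in the level of Lrg1 was not tested.

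Lrg1 is also known as a transcript of neutrophils. The 10 neutrophil markers summed to 0 to 0.102 CPM in 15C4 and 0 to 6.18 CPM in IgG. The sum was 0.102 CPM in 15C4 2 and 0.207 CPM in IgG 2, the libraries with most Lrg1, and 6.18 CPM in IgG 1, where S100a8 had 17 counts. Of the 10 genes, 6 were at 0 in all libraries. The part of neutrophils in the level of Lrg1 was not tested. Of the genes around LRG1 in acute inflammation, Il1r1, a receptor of interleukin-1, was at 15.9, 34.5 and 0.350 CPM (scaled by TMM factors, as are all CPM values of single genes from here on) in 15C4, against 3.58, 3.25 and 0 CPM in IgG. Its log2 fold change of 2.90 (SE 1.90) did not pass (edgeR adjusted p = 1.00). It had the smallest p of the 8 tested genes of the IL-6 and STAT3 list, of which 0 passed in either direction, 3 were fitted above 0 and 5 below, with a median log2 fold change of -0.10. That median ran from -0.39 without 15C4 2 to 0.51 without 15C4 3.

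**Figure D1:**
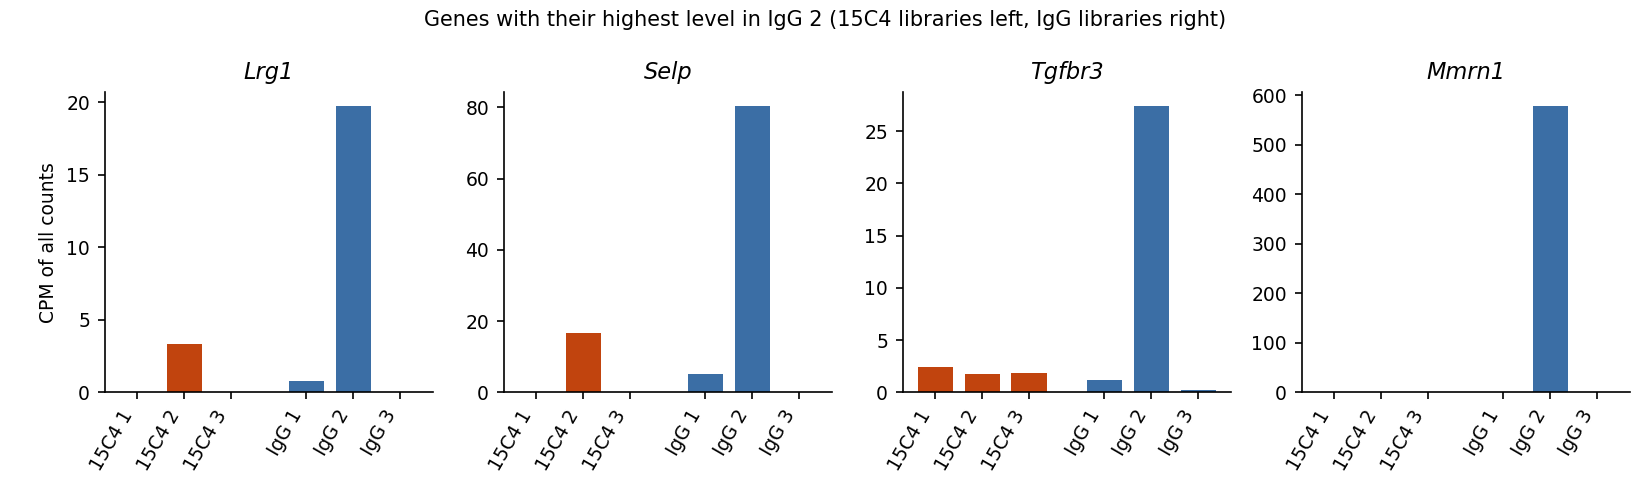
CPM of all counts (y axis, linear from 0, its own scale in each panel) of Lrg1, Selp, Tgfbr3 and Mmrn1 in each of the 3 15C4 and 3 IgG libraries, 1 bar a library. All 4 genes were highest in IgG 2, where Lrg1 was at 19.7 CPM and the lymphatic gene Mmrn1 at 578 CPM, and Selp was at 0 where Lrg1 was at 0.

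None of the 9 genes that could be tested passed between 15C4 and IgG. edgeR's quasi-likelihood test called 0 of them, as it called 0% of the 11144 genes tested, with an adjusted p of 1.00 for each member. At an unadjusted p under 0.05 there was 1 member, Tgfb3, where 2.55% of all tested genes were under it. DESeq2 called 0.252% of genes and none of the 6 members to which it gave an adjusted p, and limma-voom called none. Of the 9 members, 3 were fitted above 0 and 6 below, with a median log2 fold change of -0.30, beside 0.01 over all tested genes. Lrg1, the tenth member, was left out by the filter on low counts.

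**Figure D2:**
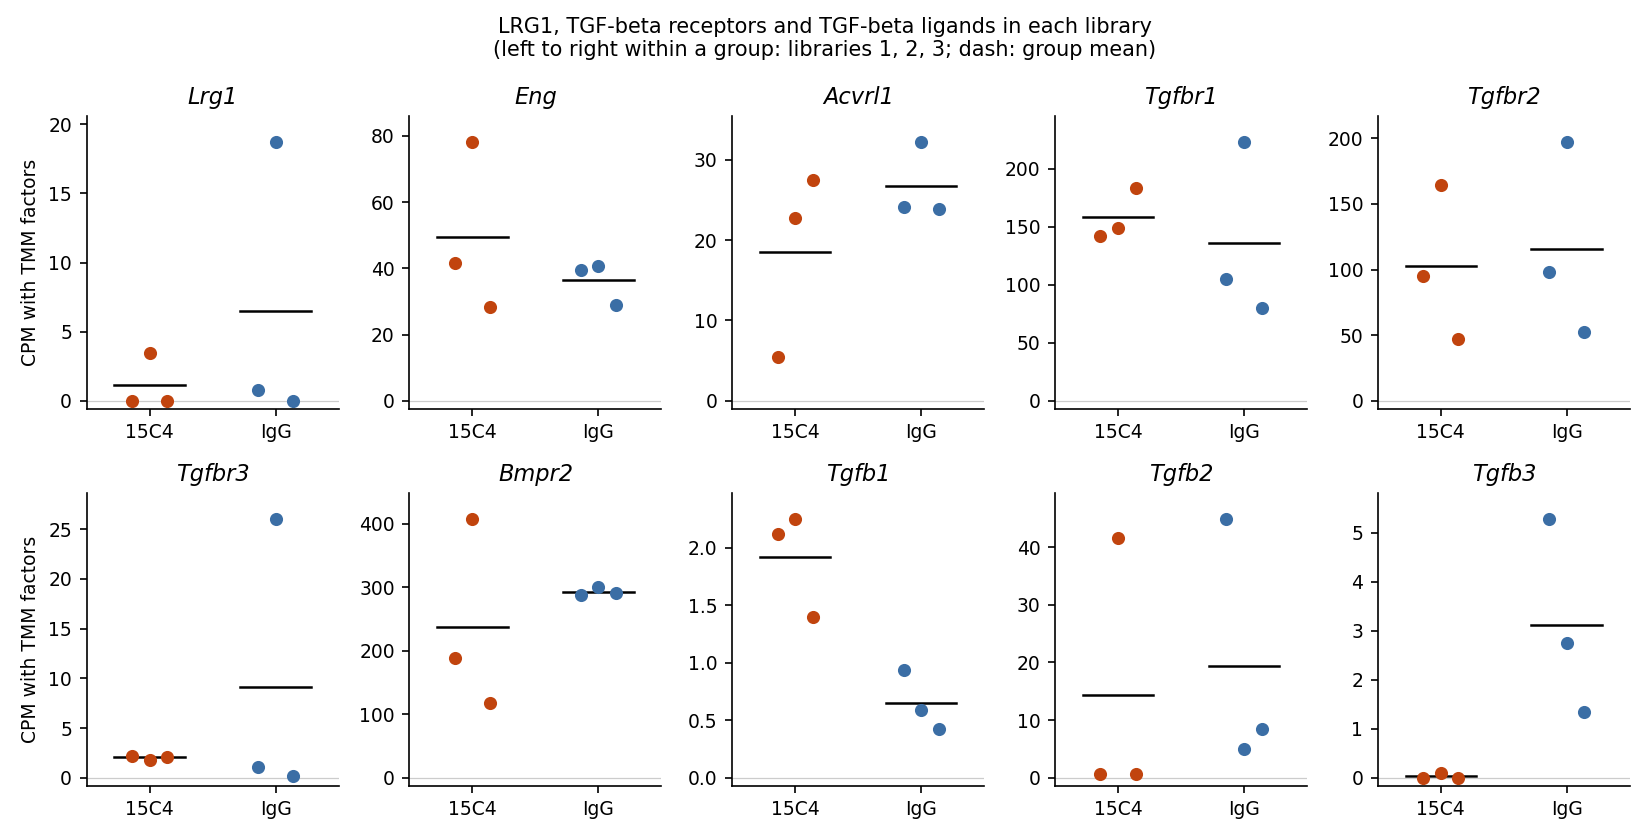
CPM with TMM factors (y axis, linear, its own scale in each panel) of the 10 genes in the 3 15C4 libraries (left, red) and the 3 IgG libraries (right, blue), with a dash at the group mean. The groups are apart for Tgfb1, higher in 15C4, and Tgfb3, lower in 15C4, and they overlap for the other 8 genes.

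Among the ligands, Tgfb3 (chromosome 12, 86056745 to 86079041) had 0, 2 and 0 counts in 15C4 1, 2 and 3, and 28, 28 and 16 counts in IgG 1, 2 and 3. The TGF-beta isoform it encodes is known from palate and heart development and from wounds. All 15C4 libraries lay below all IgG libraries, which 5.9% of tested genes did. IgG 3 was the lowest of the IgG libraries, at 1.37 CPM of all counts (exact 95% Poisson interval 0.784 to 2.23). That level lay above 0.439 and 0.577 CPM, the upper ends of the same interval for the 0 counts in 15C4 1 and 15C4 3. These intervals hold for counting error only. Of all tested genes, 507, 334 and 1537 were at 0 in 15C4 1, 2 and 3. In IgG 1, 2 and 3 it was 31, 178 and 347. The part of uneven detection in the 0 counts of Tgfb3 was not tested.

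The counts of Tgfb3 per total were 0.0214-fold in 15C4 relative to IgG (95% counting interval 0.00254 to 0.0802). In the fit the log2 fold change was -5.75 (SE 2.02, 95% interval -10.4 to -1.13, edgeR adjusted p = 1.00), a size that depends on the prior count because 2 libraries were at 0. Without 15C4 2, which held the only 2 counts, Tgfb3 was 13.4-fold lower in 15C4 at a floor of 3 counts over the group. The lower end of the 95% counting interval there was 10.6-fold. With each other library left out the count ratio stayed between 0.0154 and 0.0283. Of all tested genes, 2.11% had 0 counts in both 15C4 1 and 15C4 3.

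The authors' deposited table gives Tgfb3 an adjusted p of 0.00113 and a log2 fold change of 5.725, which runs as IgG over 15C4. That table has 3.59% of 14112 genes under 0.05. Its base mean differed by more than 10% from the mean of the 6 normalised columns for 8600 of the 11882 genes with a mean of at least 10, so its fit cannot rest on these 6 columns alone. DESeq2 on the 6 libraries gave Tgfb3 no adjusted p with the filter on low counts and 0.393 without it. No other member was below 0.05 in the authors' deposited table, where the next lowest adjusted p was 0.433, for both Tgfbr3 and Tgfb1.

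Tgfb1 (chromosome 7, 25687002 to 25705077), the ligand known as the main one of immune cells and platelets, had 19, 42 and 8 counts in 15C4 1, 2 and 3, and 5, 6 and 5 counts in IgG 1, 2 and 3. Its mean was 1.92 ± 0.458 CPM over the 15C4 libraries and 0.651 ± 0.266 CPM over the IgG libraries (SD, n = 3 each). All 15C4 libraries were above all IgG libraries, as for 3.63% of tested genes (9.54% were apart in either direction, and 2 of the 9 members), but the exact Poisson intervals of 15C4 3 (0.540 to 2.47 CPM of all counts) and IgG 1 (0.314 to 2.25) overlapped. The counts per total were 3.32-fold in 15C4 relative to IgG (95% counting interval 1.91 to 6.14), and between 2.70 and 3.89 with 1 library left out. The log2 fold change of 1.56 (SE 1.51, 95% interval -1.90 to 5.02) did not pass (edgeR adjusted p = 1.00).

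The 7 platelet markers summed to 0 to 0.833 CPM in 15C4 and to 0.415 to 1.37 CPM in IgG, and Ppbp was at 0 in all libraries. The 14 T and NK cell markers summed to 5.21 to 220 CPM in 15C4, with the highest value nearly all Ccl5, and 9.17 to 606 CPM in IgG. The 15 macrophage and monocyte markers summed to 0.939 to 85.3 CPM in 15C4 and 25.6 to 211 CPM in IgG. Both of these lists were highest in IgG 1. The part of these cells in the level of Tgfb1 was not tested.

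Tgfb2 (chromosome 1, 186622792 to 186705989), a ligand whose latent form, unlike that of the other two, lacks the integrin-binding motif, varied most among the ligands that were detected throughout. It was at 0.670, 41.5 and 0.700 CPM in 15C4 1, 2 and 3, and at 44.8, 5.02 and 8.50 CPM in IgG 1, 2 and 3. Each group had 1 library above 40 CPM and the rest at 8.50 CPM or below, the groups overlapped, and the highest and lowest of all 6 differed 66.8-fold. Its fitted log2 fold change was -0.44 (SE 1.59, 95% interval -4.07 to 3.20, edgeR adjusted p = 1.00). It was -4.78 without 15C4 2 and 1.08 without IgG 1, so its sign rested on single libraries.

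Per kb of exons, the make-up of the 3 ligands differed from library to library. Tgfb1 made up 78.4%, 5.84% and 69.7% of their summed level in 15C4 1, 2 and 3, and 1.97%, 6.51% and 4.28% in IgG 1, 2 and 3. Tgfb2 was the largest share in 15C4 2, at 93.8%, and in all IgG libraries, at 81.6%, 48.2% and 75.3%. Tgfb3 made up 0%, 0.414% and 0% in 15C4, against 16.4%, 45.3% and 20.4% in IgG. The shares in 15C4 1 and 15C4 3 rest on few reads. Tgfb1 had 19 and 8 counts there, Tgfb2 had 6 and 4, and Tgfb3 had 0. The mean share of Tgfb1 was 51.3 ± 39.6% over the 15C4 libraries and 4.25 ± 2.27% over the IgG libraries (SD, n = 3 each), but 15C4 2 lay within the IgG range. A two-sided exact permutation test gave p = 0.2, or 0.45 adjusted over the 3 ratios tested, where 0.1 is the smallest p that 3 libraries against 3 allow.

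**Figure D3:**
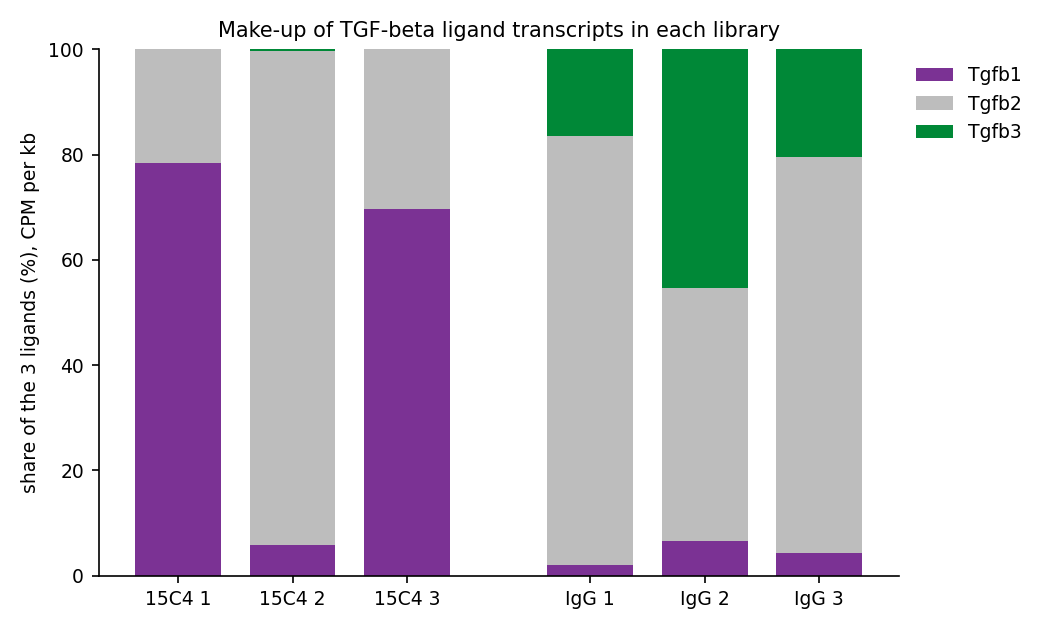
Share of Tgfb1, Tgfb2 and Tgfb3 (stacked, in % of their summed CPM per kb of exons, y axis) in each 15C4 library (left) and each IgG library (right). Tgfb3 fills 16.4% to 45.3% of the IgG bars and at most 0.414% of the 15C4 bars, and Tgfb1 fills most of 15C4 1 and 15C4 3. The bars of 15C4 1 and 15C4 3 rest on few counts (Tgfb1 19 and 8, Tgfb2 6 and 4, Tgfb3 0).

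Of the co-receptors, Eng (chromosome 2, 32646595 to 32682669) was at 41.6, 78.1 and 28.4 CPM in 15C4 1, 2 and 3, and at 39.4, 40.7 and 29.04 CPM in IgG 1, 2 and 3. The groups overlapped, and 15C4 2 stood above the other 5 libraries. The log2 fold change was 0.44 (SE 0.56, 95% interval -0.84 to 1.72, edgeR adjusted p = 1.00), and -0.04 without 15C4 2. An interval of this width leaves room for a change of either sign.

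Relative to the endothelial markers, Eng lay in a narrow range in 5 libraries and stood apart in IgG 3. There, Eng was at 12.8% of the summed pan-endothelial CPM, against 2.64%, 2.08% and 1.52% in 15C4 1, 2 and 3, and 1.93% and 1.46% in IgG 1 and 2. Relative to Cdh5 it was at 0.639 in IgG 3, against 0.0648 and 0.0357 in IgG 1 and 2. In 15C4 1, 2 and 3 it was at 0.0877, 0.0601 and 0.0261 relative to Cdh5. The ratio averaged 2.08 ± 0.557% in 15C4 and 5.39 ± 6.40% over the IgG libraries (SD, n = 3 each). A permutation test, exact and two-sided, gave p = 0.9, also after adjustment over the 3 ratios. Without IgG 3 the difference turned round, to 0.385 percentage points higher in 15C4 (exact permutation p = 0.4).

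Acvrl1, Tgfbr1, Tgfbr2 and Bmpr2 were, like Eng, highest in IgG 3 relative to the endothelial markers, and Tgfbr3, at 0.171 CPM of all counts in that library, was not. In IgG 3, Acvrl1 was at 10.5% of the summed pan-endothelial CPM, against 0.347% to 1.48% in the 15C4 libraries and 1.18% and 1.15% in IgG 1 and 2. Bmpr2 was at 128%, against 6.30% to 12.0% in 15C4 and 14.1% and 10.8% in IgG 1 and 2. The melanocyte markers of IgG 3 summed to 24213 CPM, the lowest of the 6. Bmpr2 itself was at 296 CPM of all counts in IgG 3, close to its 295 and 316 CPM in IgG 1 and 2, while the 24 endothelial markers summed to 232 CPM there and to 1664 CPM or more elsewhere. From which cells these transcripts came was not tested.

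**Figure D4:**
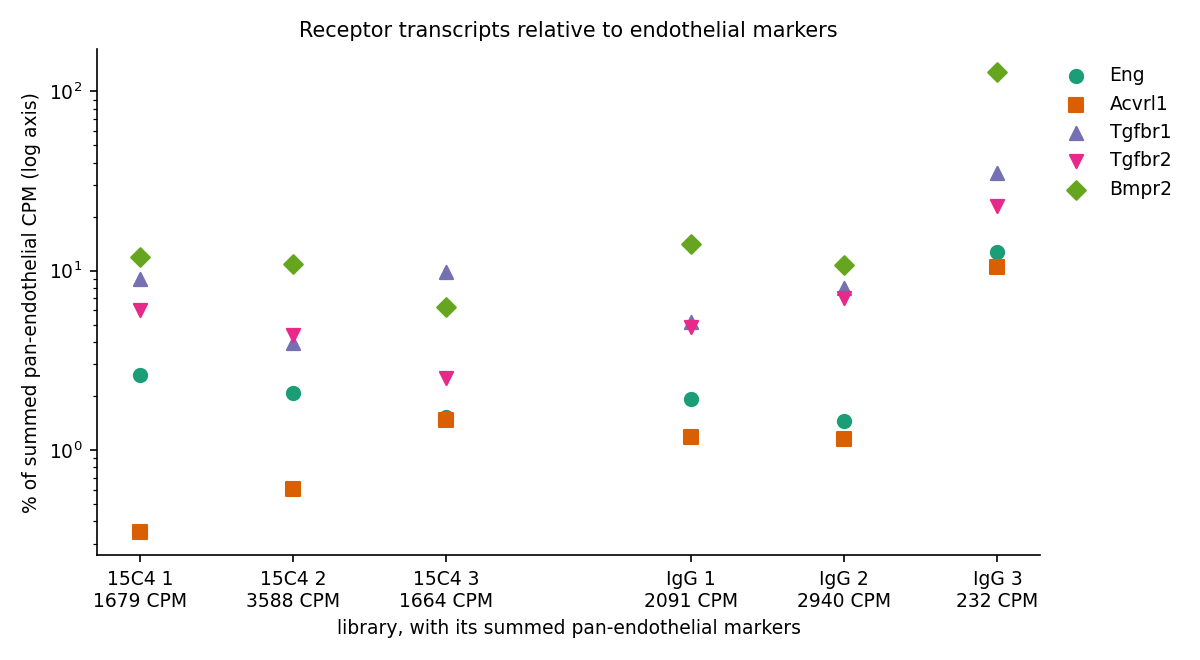
CPM of 5 receptor genes as a percentage of the summed CPM of 24 pan-endothelial markers (y axis, log scale) in the 3 15C4 libraries (left) and the 3 IgG libraries (right), 1 symbol a gene. Levels are not per length, so a gene is to be compared with itself between libraries. All 5 genes are highest in IgG 3, the library with 232 CPM of endothelial markers.

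The genes most like Eng over the 6 libraries were Zfp456, Enc1, Strn, Wdfy3 and Ppic, with Pearson r of log2(CPM + 1) between 0.963 and 0.988. None is on the pan-endothelial list. Enc1, for one, was at 76.4, 129 and 29.7 CPM of all counts in 15C4, against 72.5, 74.3 and 45.7 CPM in IgG. These are descriptions over few libraries that share differences in depth.

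Tgfbr3 (chromosome 5, 107106570 to 107289629), which encodes betaglycan, had 20, 34 and 12 counts in 15C4 1, 2 and 3, and 6, 264 and 2 counts in IgG 1, 2 and 3. Its level of 25.99 CPM in IgG 2 stood apart from the range of 1.82 to 2.23 CPM in 15C4 and from 1.13 and 0.168 CPM in IgG 1 and 3. The log2 fold change of -2.15 (SE 1.77, 95% interval -6.21 to 1.92) did not pass (edgeR adjusted p = 1.00) and was 1.67 without IgG 2. In IgG 2 the lymphatic genes Lyve1 and Mmrn1 were at 367 and 578 CPM of all counts, while Lyve1 had 0 counts in every 15C4 library and Mmrn1 had 3 counts in 15C4 2 and 0 in the other two. The 7 lymphatic markers summed to 31.4 to 63.8 CPM in 15C4 and 11.6 to 1168 CPM in IgG, and their part in the level of Tgfbr3 was not tested. As a share of that sum, Tgfbr3 was at 7.58%, 4.28% and 2.94% in 15C4 1, 2 and 3. In IgG 1, 2 and 3 it was at 2.44%, 2.34% and 1.48%, a ratio chosen after the values were seen. In CPM of all counts, Flt4 alone was 30.6 of the 31.4 CPM in 15C4 1, 34.5 of 40.6 CPM in 15C4 2 and 36.1 of 47.5 CPM in IgG 1. Of the 7 genes, 5 were at 0 in 15C4 3 and in IgG 3. Outside IgG 2 the share therefore does not scale Tgfbr3 to lymphatic content.

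Of the type I receptors, Acvrl1 (chromosome 15, 101128522 to 101145336), which encodes ALK1 and is mutated, like Eng, in hereditary haemorrhagic telangiectasia, was at 5.48, 22.8 and 27.5 CPM in 15C4 1, 2 and 3. In IgG 1, 2 and 3 it was at 24.1, 32.2 and 23.8 CPM. The low value was that of 15C4 1, and 15C4 3 lay within the IgG range. The log2 fold change was -0.53 (SE 0.76, 95% interval -2.26 to 1.21, edgeR adjusted p = 1.00), and -0.09 without 15C4 1.

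Tgfbr1 (chromosome 4, 47353222 to 47414931), which encodes ALK5, was at 142, 149 and 183 CPM in 15C4 1, 2 and 3, and at 105, 223 and 80.1 CPM in IgG 1, 2 and 3. The 15C4 libraries lay close together, between the highest IgG library and the other two. In the fit, its log2 fold change was 0.21 (SE 0.45, 95% interval -0.82 to 1.24, edgeR adjusted p = 1.00), 0.77 without IgG 2 and -0.04 without IgG 3.

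Per kb of exons, the level of Acvrl1 relative to Tgfbr1 was 0.0590, 0.234 and 0.230 in 15C4 1, 2 and 3, against 0.350, 0.221 and 0.456 in IgG 1, 2 and 3. Its mean was 0.174 ± 0.0998 over the 15C4 libraries and 0.342 ± 0.118 over the IgG libraries (SD, n = 3 each). IgG 2 lay between the 15C4 libraries, so the groups overlapped (two-sided exact permutation p = 0.3, 0.45 adjusted over the 3 ratios). The difference stayed negative, between -0.229 and -0.111, with any 1 library left out. In all 6 libraries ALK5 transcripts exceeded those of ALK1. Melanocyte markers summed to 24213 CPM or more in every library, and pan-endothelial markers to 3588 CPM or less. From which cells the transcripts of either receptor came was not tested.

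Of the type II receptors, Tgfbr2 (chromosome 9, 116084293 to 116175360), which binds the TGF-beta ligands, was at 95.2, 165 and 47.1 CPM in 15C4 1, 2 and 3, and at 98.3, 197 and 52.3 CPM in IgG 1, 2 and 3. Both groups spanned nearly the same range. Its fitted log2 fold change was -0.18 (SE 0.62, 95% interval -1.60 to 1.24, edgeR adjusted p = 1.00), -0.68 without 15C4 2 and 0.44 without IgG 2.

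Bmpr2 (chromosome 1, 59763400 to 59879014), the type II receptor of BMPs and the main gene of heritable pulmonary arterial hypertension, was at 189, 407 and 117 CPM in 15C4 1, 2 and 3. In IgG 1, 2 and 3 it was at 287, 300.2 and 291 CPM. The IgG libraries differed by little (SD 6.60 CPM, n = 3), while the 15C4 libraries lay on both sides of them (SD 151 CPM, n = 3). Bmpr2 had a log2 fold change of -0.30 (SE 0.46, 95% interval -1.35 to 0.75, edgeR adjusted p = 1.00), -0.92 without 15C4 2 and 0.02 without 15C4 3, the library with the most genes at 0.

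**Figure D5:**
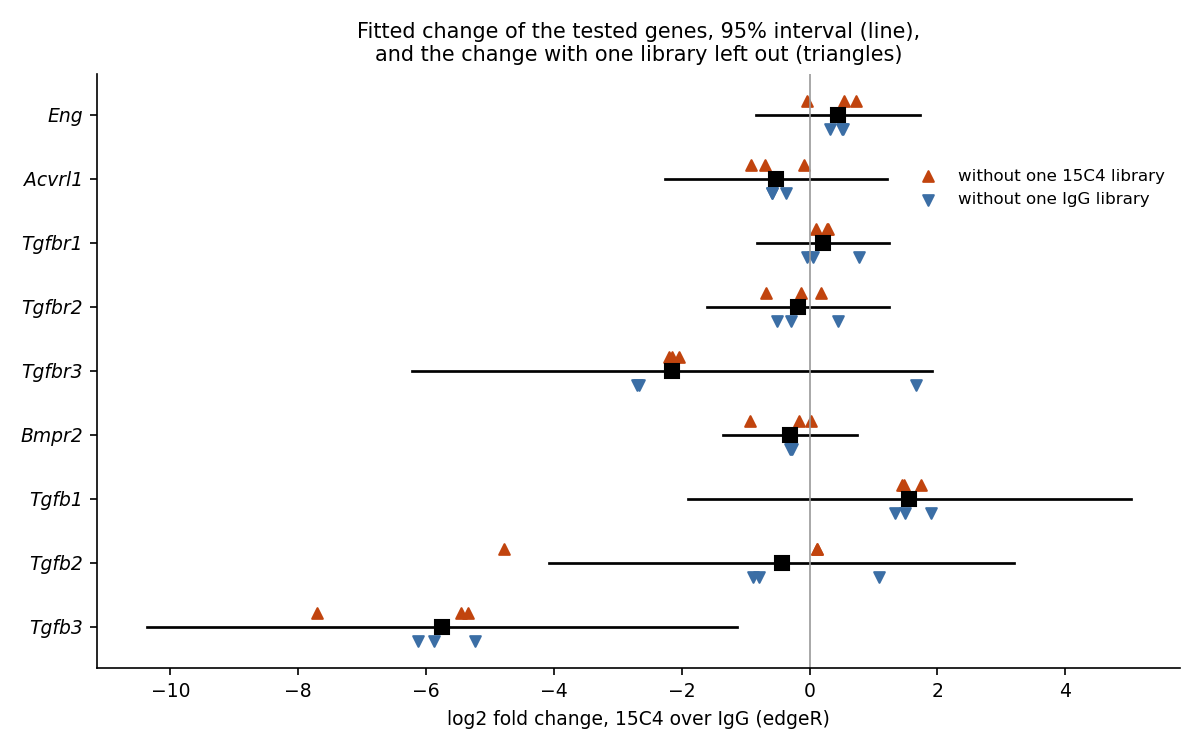
Log2 fold change of 15C4 over IgG (x axis) of the 9 tested genes in the edgeR fit (squares, with the 95% interval as a line) and with 1 library left out (triangles, red for a 15C4 and blue for an IgG library). The interval of Tgfb3 lies below 0, all others cross 0, and the triangles of Eng, Tgfbr1, Tgfbr2, Tgfbr3, Bmpr2 and Tgfb2 fall on both sides of 0.

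Ordered by their median level per kb of exons over the 6 libraries, the genes were Tgfbr1 (22.3 CPM per kb), Bmpr2 (16.1), Tgfbr2 (11.8), Eng (9.88), Acvrl1 (5.62), Tgfb2 (1.17), Tgfbr3 (0.299), Lrg1 (0.268), Tgfb1 (0.232) and Tgfb3 (0.215). The ranges of every pair of neighbours overlapped. Within libraries, Eng exceeded Acvrl1 in 6 of 6 and Tgfbr1 exceeded Bmpr2 in 5 of 6, while from Tgfb2 downwards each gene exceeded the next in 3 of 6. The order differed between the groups. By the IgG medians, Bmpr2 (16.18) and Tgfbr1 (16.14) were nearly level, and Tgfb3 (0.815) stood above Lrg1 (0.535), Tgfbr3 (0.173) and Tgfb1 (0.117). By the 15C4 medians, Tgfb1 (0.421) stood above Tgfbr3 (0.321) and Tgfb2 (0.121), with Lrg1 and Tgfb3 at 0. Exon lengths are from GENCODE M21, and the sources used here do not name the annotation behind the counts.

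The rest of the pathway was read from 8 lists of ligands, receptors, SMADs, latency and activation, inhibitors, targets of both branches and the IL-6 axis, which together hold 126 further genes. Of these, 69 could be tested and 0 passed in either direction in edgeR's quasi-likelihood test. At an unadjusted p under 0.05 there were 3, where 2.55% of all tested genes were under it. Fitted above 0 were 33 and below 36, where 50.7% of all tested genes were above 0. Their median log2 fold change was -0.03, beside 0.01 over all tested genes. In 4 of them, Acvr2a, Skil, Id2 and Hey1, all 15C4 libraries were above all IgG libraries (5.80%, beside 3.63% of all genes), and in 2, Itgav and Cdkn1a, all were below (2.90%, beside 5.9%).

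Other ligands and receptors were mostly low, with 4 of 26 ligands and 8 of 12 receptors tested. Inhbb, which encodes an activin subunit, was at 403, 123 and 238 CPM in 15C4, against 96.4, 203 and 23.99 CPM in IgG (fitted at 1.24 in log2, SE 0.74). Acvr2a, a type II receptor of activins, was at 63.6, 43.04 and 90.1 CPM in 15C4, against 30.3, 41.5 and 41.7 CPM in IgG (0.79, SE 0.50). The ligand list had 2 genes fitted on each side of 0 and a median of 0.27. With any 1 library left out, when 5 to 7 ligands could be tested, that median was below 0, between -3.52 without 15C4 1 and -0.25 without IgG 1. The receptor list had 3 above and 5 below, with a median of -0.03, and ran from -0.34 without 15C4 3 to 0.12 without IgG 1.

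Of 8 SMAD genes 7 were tested, 4 above and 3 below 0, with a median log2 fold change of 0.03, and of -0.28 without IgG 1 and 0.48 without IgG 2. Smad4, the SMAD shared by both branches, was at 108, 52.4 and 48.7 CPM in 15C4, against 140, 188 and 103 CPM in IgG, with 15C4 1 within the IgG range (fitted at -1.04 in log2, SE 0.47). Of the genes that bind or activate latent TGF-beta, 9 of 14 were tested, 1 above and 8 below 0, with a median of -0.63. Without IgG 2 it was 4 above and 5 below, with a median of -0.15, and limma-voom put 3 above and 6 below. Itgav, the alpha-V integrin subunit that frees TGF-beta from its latent complex, was at 329, 336 and 405 CPM in 15C4, against 585, 477 and 595 CPM in IgG, and the groups did not overlap (-0.63, SE 0.28, edgeR adjusted p = 1.00). Of the 24 inhibitors 12 were tested, 7 above and 5 below 0, with a median of 0.12, and of -0.21 without IgG 3 and 0.33 without IgG 1. Twsg1, a BMP-binding protein, was at 86.5, 38.6 and 35.7 CPM in 15C4, against 127, 175 and 60.9 CPM in IgG (-1.18, SE 0.56).

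Of the genes known as targets of TGF-beta through SMAD2 and SMAD3, 14 of 18 were tested, 9 above and 5 below 0, with a median log2 fold change of 0.54. Without 15C4 2 that median was -0.13, without 15C4 3 it was 0.08 and without IgG 3 it was 0.05. Cdkn1a, a cell cycle inhibitor also induced by p53, was at 54.6, 53.2 and 69.1 CPM in 15C4, against 122, 99.7 and 220.4 CPM in IgG (-1.32, SE 0.44, edgeR adjusted p = 1.00). Of the targets of BMP and ALK1 signalling, 10 of 15 were tested, 7 above and 3 below 0, with a median of 0.22. The sign rested on single libraries, with 3 above and 7 below (median -0.455) without 15C4 2 and 10 above and 0 below (median 0.785) without 15C4 3. Id2, an inhibitor of bHLH transcription factors, was at 489, 457 and 513 CPM in 15C4, against 222, 84.0 and 190 CPM in IgG (1.56, SE 0.40, edgeR adjusted p = 1.00). These lists are described by count and median only.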

How the data were processed

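RNA from sorted cells was amplified as cDNA and made into Nextera XT libraries, per the labels' protocols. The authors deposited whole-number counts per gene symbol for 6 libraries, and fastp, STAR 2.5b, featureCounts and DESeq2 are named in the submitters' processing notes, with builds mm10 and mm9. Which build, annotation and strand setting the counts rest on is not given in the sources used here, so reads of genes on the other strand (Fpgs at the end of Eng, for one) may be included. The authors also deposited a table with normalised values (a score: counts divided by a size factor and rounded), a log2 fold change and p-values.

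Counts were tested with edgeR 4.0.16 (R 4.3.3; quasi-likelihood, robust, TMM, filterByExpr with a minimum count of 10 and a total of 15, treatment as the only term, Benjamini-Hochberg over all genes, threshold 0.05). The SE is the absolute log2 fold change over the square root of F. CPM with TMM factors divide by total counts times the TMM factor. DESeq2 1.42.0 and limma 3.58.1 were alternatives, and each tool was tested on simulated counts. Ratios were compared by exact permutation. Intervals and floors (3 counts) hold for counting error only: the libraries were amplified without molecular identifiers, so reads are not independent molecules. Coordinates and exon lengths are from GENCODE M21 on GRCm38.

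The members, lists and tests were chosen with earlier results of these data known. Beside the members, the text names the member of each pathway list with the smallest p, the 5 genes most like Lrg1 and Eng (mean of at least 10 CPM, predicted genes left out) and abundant markers of cells other than endothelium. Skil, Hey1, Flt4, S100a8 and Ppbp, and the ratios other than that of Eng to endothelial markers, were singled out after their values were seen.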

Additional observations from a re-analysis of the deposited data

How the results depend on the processing

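The count of genes called was 0 in the edgeR fit and under RLE, upper-quartile and no normalisation factors, a mean count of at least 50, limma-voom with or without sample weights, no robust hyperparameters and each library left out. It was 1 without a filter on low counts and 26 with DESeq2, and, chosen after seeing the data, 65 with DESeq2 without a filter. In none of these fits did a member pass. Tgfb1, Tgfb3 and Acvrl1 kept their sign under every alternative that tested them (Tgfb1 and Tgfb3 could not be tested with the mean count of at least 50), Tgfb1 between 1.34 and 1.90, Tgfb3 between -7.70 and -4.86 and Acvrl1 between -0.99 and -0.09 in log2. With 1 library left out, Eng ranged from -0.043 to 0.72, Tgfbr1 from -0.04 to 0.77, Tgfbr2 from -0.68 to 0.44, Tgfbr3 from -2.70 to 1.67, Bmpr2 from -0.92 to 0.02 and Tgfb2 from -4.78 to 1.08, which crosses 0 for each. limma-voom gave 0.038 for Tgfbr2 and 0.16 for Tgfbr3, and with sample weights 0.14 and 0.014, and without both 15C4 3 and IgG 3 the values were -0.17 for Tgfbr1, 0.026 for Bmpr2 and -2.74 for Tgfbr3. The causes were not tested. Same-numbered libraries showed little shared deviation over all tested genes (r of -0.036, 0.063 and 0.101). The labels do not say whether the numbers mark a pairing, and correlations over so few libraries cannot settle it. With a replicate block 0 genes were called, and Tgfbr3 was at 0.46, or 0.48 without a filter on low counts. Under the block the median turned from above to below 0 for BMP and ALK1 targets (-0.11), SMAD2 and SMAD3 targets (-0.13) and other ligands (-0.64). As in the main fit, the median was also below 0 for the IL-6 axis (-0.38), latency and activation (-0.55) and other receptors (-0.07). Over all tested genes it was then also below 0 (-0.148), so the medians of both target lists were no lower than that of all genes. The ligand median was also -2.47 with limma-voom and -0.90 without a filter, beside -0.135 and -0.04 over all tested genes. Of the 8 lists, the one on latency and activation kept its sign in every fit. The Eng ratio differed by -3.31 percentage points, between -5.27 and 0.385 with 1 library left out, and by 0.663 without both 15C4 3 and IgG 3. Low counts limit Lrg1, Tgfb1 and Tgfb3, with at most 190, 42 and 28 counts in a library. They also limit Tgfb2 in 15C4 1 and 15C4 3 (6 and 4 counts) and Tgfbr3 outside IgG 2 (34 counts or fewer).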
